A study of Arabidopsis thaliana with 12 samples.

Results

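Xyloglucan endotransglucosylase/hydrolases (XTH) and alpha-expansins (EXPA) are families of secreted proteins that act on the plant cell wall. The genes described here are the 33 Arabidopsis thaliana XTH loci, XTH1 to XTH33, and 17 of the alpha-expansin loci. They make up 50 of the 25665 loci on the array. They were chosen by locus code and family name, with earlier results of these data known, and each has 1 probe. All 50 are listed in RefSeq's gene table for this species. Of these, 46 passed the filter on dim probes and were tested among 21347 genes, namely 30 XTH and 16 EXPA genes. XTH1, XTH2, XTH3 and EXPA16 were not tested.

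In a growing wall, xyloglucan chains tether cellulose microfibrils. XTH enzymes cut a xyloglucan chain and either join the new end to another chain or, for some members of group III, hydrolyse it. Alpha-expansins loosen the contact between cellulose and xyloglucan at acid pH without cutting either, and members of both families are known for expression in particular organs, such as root hairs.

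RNA was compared on one-colour arrays between seedlings and 3 kinds of callus, with 3 arrays per group (n = 3), each from a different plant or callus according to the labels. All material was of strain Col-0 by the labels and grew on solid MS medium. The seedlings were wild type, untreated, intact and 14 days old. The second group consisted of callus-like plants that carry 35S:WIND1, in which the constitutive 35S promoter drives the transcription factor WIND1 in most tissues, with no hormone treatment. T87 callus came from the T87 cell line, a single wild-type line, and was kept with 500 nM of the synthetic auxin NAA. The 2,4-D-induced callus was wild type and was kept with 500 µg/L of the synthetic auxin 2,4-D. No age is given for the calli, and seedlings contain whole organs, while the organ content of the calli was not measured. In such bulk samples, fewer cells of a type and less RNA per cell cannot be told apart. The question that the design poses is how callus formed through WIND1 compares with calli kept on auxin.

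Each level below is the log2 signal of a probe minus the 75th percentile of log2 signals on its array, so 0 marks that percentile. That percentile lay between 1755 and 3716 signal units, 57.1% to 65.9% of spots per array were well above background, and the number of arrays limits the precision. Changes were called by limma when the adjusted p (Benjamini-Hochberg) was below 0.05 and the fold was 2 or more. A fold is given as "at least" a value when every array of the lower group was too dim to be well above background, since only a bound is then known. WIND1 itself read 1.20, 1.37 and 1.22 in seedlings and 3.90, 3.20 and 3.62 in 35S:WIND1 callus. It was also higher than in seedlings in T87 callus, at 1.95 to 2.50, and in 2,4-D-induced callus, at 2.70 to 3.15. The median SD of the XTH and EXPA genes between replicates was lowest in seedlings, at 0.20, and highest in 35S:WIND1 callus, at 0.67, with 0.33 for T87 and 0.41 for 2,4-D-induced callus. Each position on the slide held 1 group, so position and group cannot be told apart.

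The XTH family was split in 35S:WIND1 callus and mostly lower in T87 callus. In 35S:WIND1 callus, 9 of the 30 XTH genes tested were called higher than in seedlings and 4 lower, against 12.5% and 19.6% of all genes tested. In T87 callus, 2 were higher and 17 lower, against 20.8% and 26.5% of all genes. In 2,4-D-induced callus, 5 were higher and 13 lower, against 18.6% and 24.2%. The median log2 change of the tested XTH genes was 0.68, -2.63 and -0.70 in these comparisons, where the median over all genes was 0.07, 0.00 and 0.15. With the genes below background at their bounds, the median in T87 callus was -2.36. All 3 comparisons use the same seedling arrays.

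These counts moved with the scaling of the arrays. Scaling to the array median placed the median of all genes at 0.50, 0.86 and 0.90 in the comparisons of 35S:WIND1, T87 and 2,4-D-induced callus with seedlings. The XTH counts were then 16 higher and 4 lower, 6 higher and 17 lower, and 11 higher and 12 lower. In 35S:WIND1 callus, 17 XTH genes were higher and 4 lower with the authors' deposited values, where the median of all genes was 0.56. Quantile normalization gave 14 higher in 35S:WIND1 callus, and 9 higher and 13 lower in 2,4-D-induced callus.

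**Figure D1:**
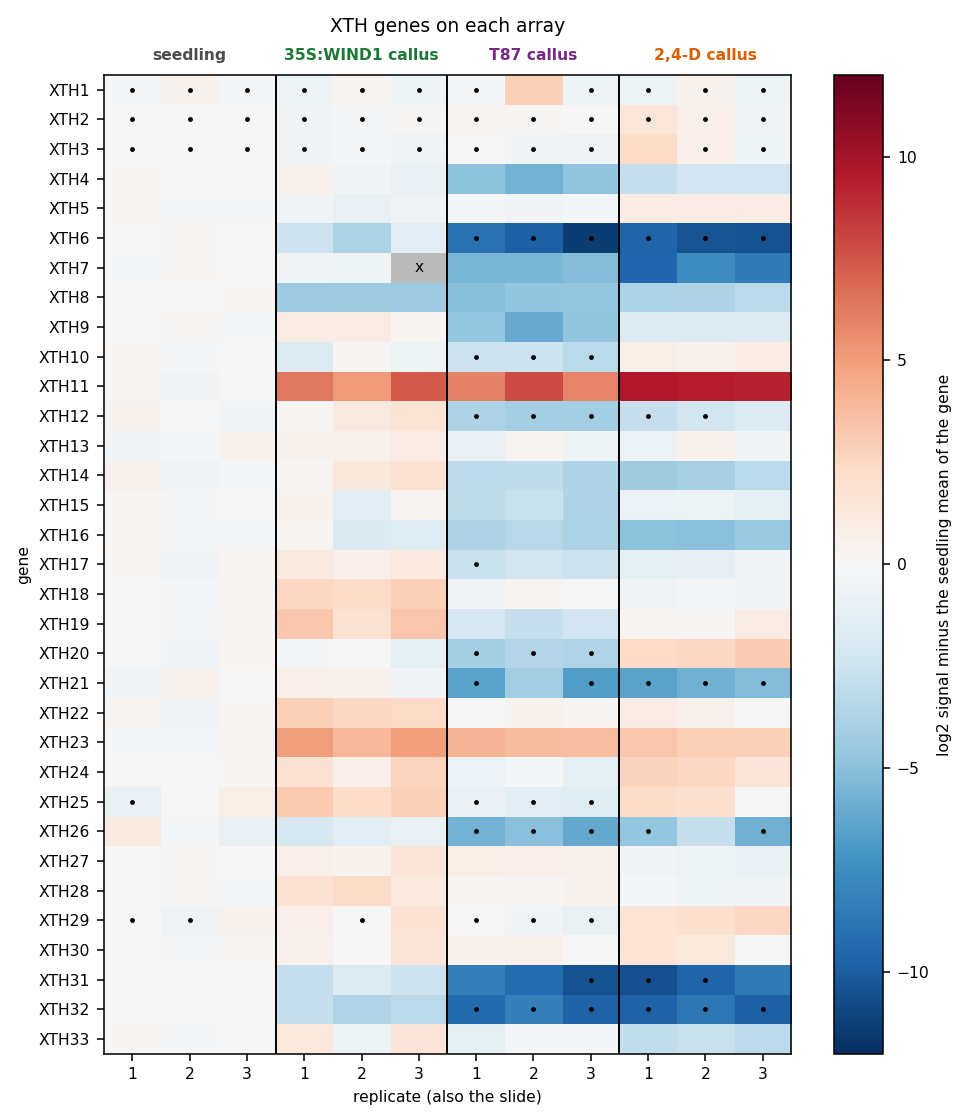
Level of each XTH gene on each of the 12 arrays, as the log2 signal minus the gene's own seedling mean (colour), with dots where the signal was not well above background and a cross on a grey cell where the spot was left out. XTH11 and XTH23 are red in every callus array, and XTH6, XTH31 and XTH32 are dark blue in T87 and 2,4-D-induced callus.

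Group III-A of the family, XTH31 and XTH32, contains the members with known xyloglucan hydrolase activity, and both genes fell in each callus. XTH31 (AT3G44990) read 3.80, 3.74 and 3.72 in seedlings and 0.89, 2.11 and 1.31 in 35S:WIND1 callus. In T87 callus it read -4.42, -5.44 and -6.71, and in 2,4-D-induced callus -6.79, -5.87 and -4.77. The seedling arrays were the highest, the 35S:WIND1 arrays lay between, and the arrays of the auxin calli were the lowest, with no overlap of either with the others. The fall was 4.98-fold in 35S:WIND1 callus (SE 0.61 on the log2 scale, adjusted p = 0.00985). It was 619-fold in T87 callus, where 2 of 3 arrays were above background, and 754-fold in 2,4-D-induced callus, where 1 of 3 was.

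XTH32 (AT2G36870) showed the same order of groups. Its levels were 0.59, 0.74 and 0.61 in seedlings and -2.12, -2.93 and -2.60 in 35S:WIND1 callus. On the 6 arrays of the auxin calli it lay between -9.17 and -7.53, never well above background. It fell 9.14-fold in 35S:WIND1 callus (SE 0.41, adjusted p = 0.000135), at least 156-fold in T87 callus and at least 138-fold in 2,4-D-induced callus.

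XTH6 (AT5G65730) and XTH8, from the large group I/II of transglucosylases, also fell in each callus. XTH6 read 2.66, 2.86 and 2.67 in seedlings and 0.19, -1.11 and 1.43 in 35S:WIND1 callus. On the T87 arrays it read -6.18, -7.07 and -8.66 and on the 2,4-D-induced arrays -6.91, -7.66 and -7.75, none of them well above background. The 35S:WIND1 arrays were thus below all seedling arrays and above all auxin callus arrays. XTH6 fell 5.91-fold in 35S:WIND1 callus (SE 0.68, adjusted p = 0.0102), at least 629-fold in T87 callus (adjusted p = 8.72e-07) and at least 585-fold in 2,4-D-induced callus (adjusted p = 9.00e-07).

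XTH8 (AT1G11545) was above background on all 12 arrays. It read 1.40, 1.38 and 1.58 in seedlings, -2.93, -2.84 and -2.89 in 35S:WIND1 callus, -3.63, -3.28 and -3.18 in T87 callus and -2.35, -2.23 and -1.74 in 2,4-D-induced callus. The fall was 20.3-fold, 28.2-fold and 11.8-fold, with SE 0.17 on the log2 scale in each. Among the auxin calli, T87 callus was 2.39-fold below 2,4-D-induced callus (adjusted p = 0.000137), a call that ended with normexp background correction (log2 difference -0.74).

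XTH11 (AT3G48580) and XTH23 rose in every callus. XTH11, a member of group I/II, read -5.46, -5.99 and -5.60 in seedlings. It read 0.65, -0.57 and 1.70 in 35S:WIND1 callus, 0.30, 2.18 and 0.19 in T87 callus and 3.93, 3.72 and 3.58 in 2,4-D-induced callus. The seedling arrays were the lowest by a wide gap, and the 2,4-D-induced arrays were above all others. The rise was 77.7-fold (SE 0.60, adjusted p = 2.17e-05), 95.5-fold (adjusted p = 6.32e-06) and 690-fold (adjusted p = 6.53e-07) in the order of the groups given. Between the calli, the 2,4-D-induced level was 8.88-fold above that in 35S:WIND1 callus (adjusted p = 0.00179) and 7.22-fold above that in T87 callus (adjusted p = 0.00215).

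XTH23 (AT4G25810) read -1.88, -1.95 and -1.47 in seedlings, 3.26, 2.24 and 3.25 in 35S:WIND1 callus, 2.27, 2.05 and 1.96 in T87 callus and 1.56, 1.13 and 1.14 in 2,4-D-induced callus. It rose 25.7-fold, 14.5-fold and 8.25-fold, with SE 0.27 on the log2 scale. The 35S:WIND1 arrays exceeded the 2,4-D-induced arrays by 3.12-fold (adjusted p = 0.000729), while the 1.77-fold difference between 35S:WIND1 and T87 callus was not called.

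Several group I/II genes that were bright in seedlings were not called in 35S:WIND1 callus and fell in both auxin calli. XTH4 (AT2G06850), which is expressed in expanding and cambial tissues, read 4.97, 4.82 and 4.76 in seedlings and 5.27, 4.55 and 4.03 in 35S:WIND1 callus, which overlapped. It read -0.05, -0.83 and 0.15 in T87 callus and 2.01, 2.53 and 2.56 in 2,4-D-induced callus. XTH4 fell 34.2-fold and 5.59-fold in these auxin calli, while its change in 35S:WIND1 callus, -0.23 on the log2 scale, was not called.

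XTH7 (AT4G37800) had the larger fall in 2,4-D-induced callus. Its levels were 4.91, 5.15 and 4.96 in seedlings, 4.62 and 4.42 on the 2 arrays of 35S:WIND1 callus with a usable spot, -0.47, -0.45 and -0.22 in T87 callus and -4.52, -2.55 and -3.34 in 2,4-D-induced callus. The fall was 41.8-fold in T87 callus and 356-fold in 2,4-D-induced callus (adjusted p = 2.68e-07), and the T87 level was 8.52-fold above the 2,4-D-induced level (adjusted p = 0.00015). The order was reversed for XTH9, which acts with XTH4 in stem secondary growth. XTH9 (AT4G03210) read 3.12, 3.27 and 2.88 in seedlings, 4.01, 4.05 and 3.28 in 35S:WIND1 callus, -1.52, -2.98 and -1.65 in T87 callus and 1.44, 1.48 and 1.41 in 2,4-D-induced callus. Its T87 arrays were the lowest, 35.3-fold below seedlings and 11.3-fold below 2,4-D-induced callus (adjusted p = 1.61e-05). Its 3.13-fold fall in 2,4-D-induced callus was not called with array median scaling (log2 change -0.90).

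XTH16 also fell in both auxin calli, 12.4-fold in T87 callus and 27.9-fold in 2,4-D-induced callus. XTH15, a gene induced by shade in seedlings, and XTH10 fell in T87 callus, by 8.83-fold and by at least 5.15-fold. Neither was called in the other calli against seedlings. XTH5 was called in no callus against seedlings, although its 2,4-D-induced arrays, at -0.89 to -0.79, lay above all other arrays and 2.68-fold above 35S:WIND1 callus. That difference was not called with the deposited values (log2 difference -0.77) or with normexp background correction (-0.92).

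XTH17 to XTH21 are known for expression in roots. Of these 5 genes, 35S:WIND1 callus had 2 higher and 0 lower by limma, T87 callus 0 higher and 4 lower, and 2,4-D-induced callus 1 higher and 1 lower. Of all genes, 12.5% were higher and 19.6% lower in the first of these calli, 20.8% and 26.5% in the second, and 18.6% and 24.2% in the last. At an unadjusted p under 0.05, 3 were higher and 0 lower in the first and 0 higher and 4 lower in the second. XTH19 (AT4G30290), known from roots and from wounded stems, read -3.39, -3.63 and -3.30 in seedlings and -0.21, -1.65 and -0.09 in 35S:WIND1 callus. It read -5.44, -6.21 and -5.77 in T87 callus and -3.21, -3.35 and -2.49 in 2,4-D-induced callus. XTH19 thus rose 6.95-fold in 35S:WIND1 callus (SE 0.40, adjusted p = 0.000274) and fell 5.13-fold in T87 callus (adjusted p = 0.000434).

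XTH20 (AT5G48070), which is also known from vascular tissue and wounded stems, went up in 2,4-D-induced callus and down in T87 callus. It read -3.51, -3.87 and -3.30 in seedlings, -3.69, -3.50 and -4.75 in 35S:WIND1 callus and -1.20, -1.06 and -0.55 in 2,4-D-induced callus. On the T87 arrays it read -7.67, -7.06 and -7.19, not well above background. The rise was 6.16-fold (SE 0.33, adjusted p = 6.36e-05) and the fall at least 8.50-fold (adjusted p = 4.78e-06), and 2,4-D-induced callus exceeded T87 callus by at least 52.4-fold.

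XTH21 (AT2G18800), which promotes primary root growth, was not called in 35S:WIND1 callus, whose arrays overlapped with the seedling arrays. It read -2.48, -1.76 and -2.24 in seedlings, -1.57, -1.68 and -2.46 in 35S:WIND1 callus, -8.57, -6.32 and -8.85 in T87 callus and -8.55, -7.96 and -7.32 in 2,4-D-induced callus. The fall was 54.1-fold in T87 callus, where 1 of 3 arrays was above background, and at least 19.8-fold in 2,4-D-induced callus, where none was. XTH18 rose 5.87-fold in 35S:WIND1 callus and was not called in the auxin calli. XTH17 fell 5.60-fold in T87 callus, with 2 of 3 arrays above background.

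XTH22 (AT5G57560), the touch-induced gene TCH4, read 1.22, 0.50 and 1.07 in seedlings and 3.77, 3.42 and 3.18 in 35S:WIND1 callus. It read 0.95, 1.33 and 1.07 in T87 callus and 1.85, 1.46 and 1.00 in 2,4-D-induced callus. The 35S:WIND1 arrays were above all others, 5.77-fold above seedlings (SE 0.26, adjusted p = 3.17e-05), and neither auxin callus was called. XTH24 (AT4G30270), first known as the meristem gene MERI5, was higher in 35S:WIND1 and in 2,4-D-induced callus. It read 3.26, 3.29 and 3.46 in seedlings, 5.02, 3.94 and 5.99 in 35S:WIND1 callus, 2.66, 3.21 and 2.20 in T87 callus and 6.08, 5.79 and 4.93 in 2,4-D-induced callus. XTH24 rose 3.14-fold (adjusted p = 0.0158) and 4.81-fold (adjusted p = 0.00201), with SE 0.48 on the log2 scale.

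Some of these genes lie side by side in the genome. In the order of protein-coding genes, XTH24, XTH18 and XTH19 are neighbours on chromosome 4, as are XTH23 and XTH14. XTH13, XTH25 and XTH22 are neighbours on chromosome 5, with XTH12 close by. All of XTH24, XTH18 and XTH19 rose in 35S:WIND1 callus, but in 2,4-D-induced callus only XTH24 of these was called. Among XTH13, XTH25 and XTH22, the last 2 rose in 35S:WIND1 callus. XTH25 (AT5G57550) read -6.04, -5.10 and -4.37 in seedlings, where 2 of 3 arrays were above background, and -2.03, -3.01 and -2.35 in 35S:WIND1 callus. Its rise was 6.52-fold (SE 0.58, adjusted p = 0.00331), while XTH13 was called in none of the 6 comparisons. Neighbouring XTH genes are close in sequence, and whether their probes also bind transcripts of the neighbour was not tested.

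**Figure D2:**
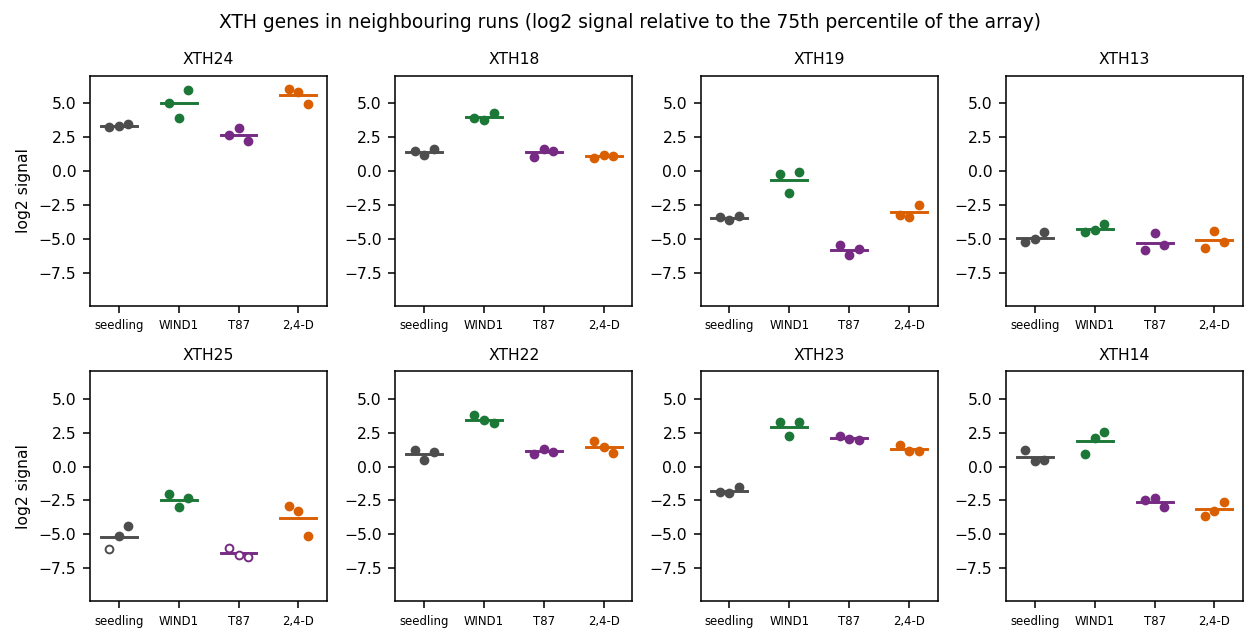
Log2 signal of 8 XTH genes in neighbouring runs on each array, with the array's 75th percentile at 0, shown as points for single arrays, open points where the signal was not well above background, and a line at the group mean. XTH24, XTH18, XTH19, XTH25 and XTH22 have 35S:WIND1 means above the seedling means, whereas XTH13 lies between -5.78 and -3.91 on all arrays.

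Group III-B holds XTH27 to XTH30 and XTH33. Of its 5 genes, 1 was higher in 35S:WIND1 callus, 0 were called by limma in T87 callus, where 1 was higher and 0 lower at an unadjusted p under 0.05, and 1 was higher and 1 lower in 2,4-D-induced callus. The shares of all genes called in either direction were 32.1%, 47.4% and 42.8%, and 5 genes are few to set against them. XTH28, which acts in stamen filaments, rose 3.32-fold in 35S:WIND1 callus (adjusted p = 0.000186). XTH29 rose 4.00-fold in 2,4-D-induced callus, with 1 of 3 seedling arrays above background. XTH29 passed the filter on dim probes through 2,4-D-induced callus alone, the group where it was highest, so the filter favoured this call. XTH33 (AT1G10550), which carries a membrane anchor, fell 7.41-fold in 2,4-D-induced callus and read -4.89, -4.64 and -5.08 there, against -1.82, -2.11 and -2.01 in seedlings. XTH27, which acts in leaf veins, was called in no callus against seedlings, and XTH30 was called in none of the 6 comparisons.

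Of the genes not tested, XTH2 was above background on no array. XTH1 was above it on 1 T87 array, at -5.64, and XTH3 on 1 array of 2,4-D-induced callus, at -6.35. Counting genes with no array above background, 10 XTH genes were undetected in T87 callus, 5 in 2,4-D-induced callus, and 3 each in 35S:WIND1 callus and seedlings.

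The alpha-expansins described here were mostly lower in every callus. In 35S:WIND1 callus, 3 of the 16 EXPA genes tested were higher than in seedlings and 10 lower. In T87 callus, 2 were higher and 12 lower, and in 2,4-D-induced callus 1 was higher and 11 lower. The background percentages are those given above for the XTH genes. The median log2 change of the tested EXPA genes was -1.69, -5.54 and -2.46, and -5.09 in T87 callus with genes below background at their bounds.

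**Figure D3:**
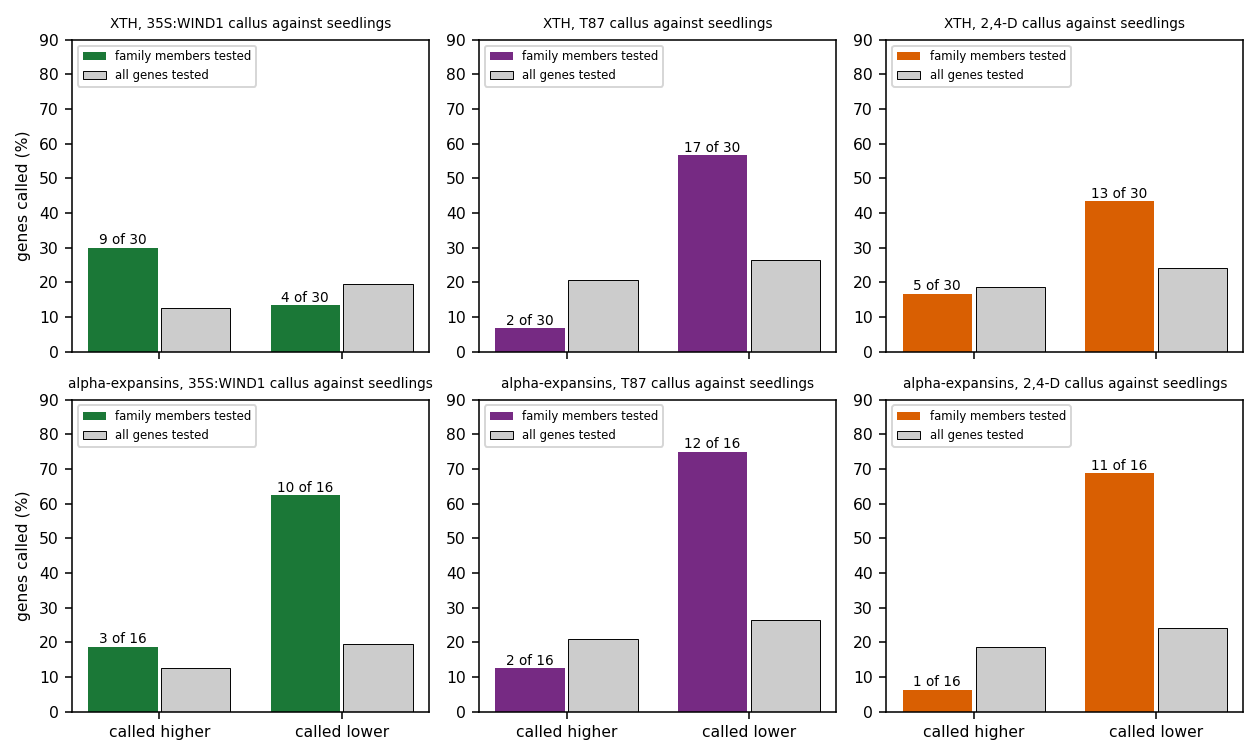
Percentage of tested genes called higher or lower than in seedlings, for the XTH family (top) and the alpha-expansins (bottom) in each callus (coloured bars, with counts) and for all genes tested (grey bars). The grey bars lie between 12.5% and 26.5%, and the alpha-expansin bars for lower genes stand for 10, 12 and 11 of 16 genes.

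EXPA5, EXPA8, EXPA17, EXPA14 and EXPA11 fell in every callus. EXPA5 (AT3G29030), which acts in brassinosteroid-dependent growth, read 2.53, 2.49 and 2.59 in seedlings and -5.42, -6.73 and -5.15 in 35S:WIND1 callus. It read -5.45, -5.13 and -5.50 in T87 callus, and -8.28, -7.86 and -8.11 in 2,4-D-induced callus, where it was not well above background. The fall was 316-fold in 35S:WIND1 callus with 2 of 3 arrays above background (SE 0.34, adjusted p = 1.97e-07). It was 238-fold in T87 callus and at least 512-fold in 2,4-D-induced callus.

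EXPA8 (AT2G40610) read 3.26, 3.29 and 3.54 in seedlings, -2.74, -4.12 and -1.77 in 35S:WIND1 callus, -6.24, -7.27 and -6.10 in T87 callus and -5.15, -4.27 and -3.66 in 2,4-D-induced callus. All seedling arrays were far above all callus arrays, and the T87 arrays were the lowest. It fell 75.7-fold in 35S:WIND1 callus, 956-fold in T87 callus, where 1 of 3 arrays was above background, and 212-fold in 2,4-D-induced callus.

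EXPA17 (AT4G01630) and EXPA14 are known from lateral root emergence. EXPA17 read 0.77, 0.78 and 2.01 in seedlings, -6.59, -7.77 and -5.98 in 35S:WIND1 callus, -6.26, -6.85 and -6.30 in T87 callus and -5.61, -4.62 and -4.93 in 2,4-D-induced callus. It fell 250-fold and 202-fold in the first pair of calli, each with 2 of 3 arrays above background, and 75.7-fold in 2,4-D-induced callus. EXPA14 (AT5G56320) was uneven among the 35S:WIND1 arrays, which read -3.74, -7.65 and -8.95 with 1 of 3 above background, against -1.65, -1.90 and -1.26 in seedlings. In T87 callus it read -8.57, -8.85 and -8.86, not well above background, and in 2,4-D-induced callus -5.65, -5.49 and -4.89. The fall was 36.1-fold (SE 1.02, adjusted p = 0.00198), at least 33-fold and 13.3-fold.

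EXPA11 (AT1G20190) read 1.78, 1.78 and 1.90 in seedlings, -3.70, -3.17 and -2.03 in 35S:WIND1 callus, -4.32, -3.99 and -5.05 in T87 callus and -4.18, -4.79 and -3.77 in 2,4-D-induced callus. The fall of 27.6-fold, 77.4-fold and 66.9-fold separated every callus array from every seedling array. EXPA3 fell 9.96-fold in 35S:WIND1 callus, where 1 spot was left out and 2 arrays gave the value, 39.8-fold in T87 callus and 31.1-fold in 2,4-D-induced callus. EXPA10, which promotes leaf growth, fell 3.39-fold, 17.1-fold and 3.59-fold.

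EXPA15 (AT2G03090) and EXPA9 fell most in T87 callus. EXPA15 read 1.54, 1.36 and 1.47 in seedlings, -1.44, 0.61 and -1.30 in 35S:WIND1 callus, -5.24, -5.51 and -5.88 in T87 callus and -1.0, 0.30 and 0.18 in 2,4-D-induced callus. The T87 arrays were the lowest, 128-fold below seedlings and 41.5-fold below 2,4-D-induced callus (adjusted p = 1.16e-05). EXPA9 (AT5G02260) read -1.82, -1.80 and -0.94 in seedlings, -3.57, -2.46 and -3.39 in 35S:WIND1 callus and -3.68, -2.93 and -1.56 in 2,4-D-induced callus. On the T87 arrays it read -8.27, -8.61 and -8.61, not well above background, at least 35.0-fold below seedlings. EXPA6 fell 18.4-fold in T87 callus and 4.07-fold in 2,4-D-induced callus, and was not called in 35S:WIND1 callus. Some of the smaller falls depended on a setting. That of EXPA15 in 2,4-D-induced callus, 3.09-fold, was not called without 2,4-D-induced replicate 1 (log2 change -1.22) or with array median scaling (-0.88). That of EXPA9 in 35S:WIND1 callus, 3.07-fold, was not called without seedling replicate 3 or 35S:WIND1 replicate 1 or 3, nor with array median scaling (-1.19).

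**Figure D4:**
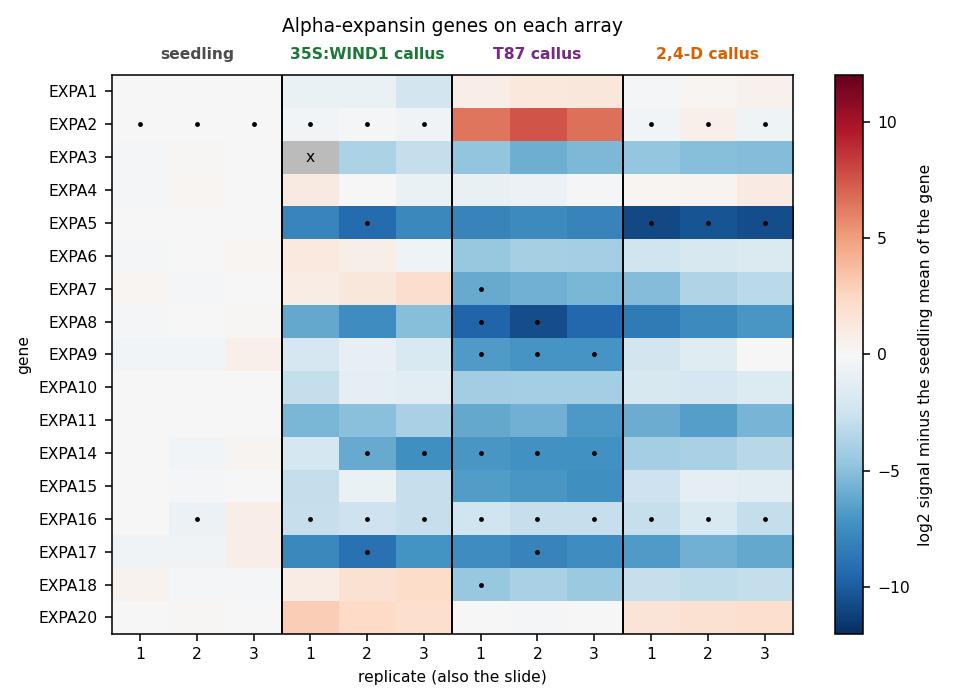
Level of each alpha-expansin gene described here on each of the 12 arrays, as the log2 signal minus the gene's own seedling mean (colour). Dots mark signals not well above background, and a cross on a grey cell marks a spot that was left out. Most callus cells are blue, EXPA2 is red on the 3 T87 arrays alone, and EXPA7 and EXPA18 are red in 35S:WIND1 callus and blue in both auxin calli.

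EXPA2, EXPA1 and EXPA20 departed from this pattern. EXPA2 (AT5G05290), which is known from germinating seeds, read -2.00, -0.84 and -1.83 in T87 callus and was not well above background on any of the other 9 arrays, where it lay between -8.97 and -7.83. T87 callus exceeded seedlings by at least 28.4-fold (adjusted p = 1.07e-07), 35S:WIND1 callus by at least 34.6-fold and 2,4-D-induced callus by at least 29.9-fold. None of these differences of EXPA2 was called with normexp background correction. EXPA2 passed the filter on dim probes through T87 callus alone, the group where it was high, so the filter favoured these calls. EXPA1 (AT1G69530), which acts in guard cells, read 3.94, 4.01 and 4.10 in seedlings, 3.21, 3.20 and 1.86 in 35S:WIND1 callus, 4.84, 5.31 and 5.34 in T87 callus and 3.87, 4.29 and 4.56 in 2,4-D-induced callus. It fell 2.39-fold in 35S:WIND1 callus (SE 0.34, adjusted p = 0.0109) and rose 2.22-fold in T87 callus (adjusted p = 0.0122), a rise not called with the deposited values (log2 change 1.12).

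The fall of EXPA1 in 35S:WIND1 callus depended on 1 array and on the scaling: the log2 change was -0.81 without 35S:WIND1 replicate 3, -0.83 with array median scaling and -0.77 with the deposited values, none of them called. EXPA20 (AT4G38210) read -0.38, -0.15 and -0.36 in seedlings, 2.64, 2.09 and 1.75 in 35S:WIND1 callus, -0.38, -0.52 and -0.22 in T87 callus and 1.29, 1.56 and 1.70 in 2,4-D-induced callus. It rose 5.48-fold in 35S:WIND1 callus (SE 0.21, adjusted p = 1.17e-05) and 3.51-fold in 2,4-D-induced callus (adjusted p = 4.06e-05). EXPA4 was called in no callus against seedlings. EXPA16, not tested, was above background on 2 of 3 seedling arrays and on no callus array.

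XTH12, XTH13, XTH14, XTH26, EXPA7 and EXPA18 are known from root hairs. Of these 6 genes, 35S:WIND1 callus had 3 higher and 0 lower by limma, while each auxin callus had 0 higher and 5 lower. The shares of all genes called higher and lower were 12.5% and 19.6% in 35S:WIND1 callus, 20.8% and 26.5% in T87 callus, and 18.6% and 24.2% in 2,4-D-induced callus. At an unadjusted p under 0.05, these counts were 4 and 0 for 35S:WIND1 callus and 0 and 5 for each auxin callus. The rises of XTH14 (log2 change 1.09), EXPA7 (1.16) and EXPA18 (1.09) in 35S:WIND1 callus were not called with normexp background correction. Nor were the falls of XTH12, XTH26 and EXPA18 in both auxin calli. EXPA7 (AT1G12560), needed for hair elongation, read -0.80, -1.19 and -0.99 in seedlings, -0.08, 0.40 and 1.11 in 35S:WIND1 callus, -7.03, -6.72 and -6.51 in T87 callus and -6.17, -4.58 and -4.21 in 2,4-D-induced callus. It rose 2.76-fold (SE 0.47, adjusted p = 0.0228), and fell 54.4-fold in T87 callus, where 2 of 3 arrays were above background, and 15.9-fold in 2,4-D-induced callus. EXPA18 (AT1G62980), its close relative, read -1.51, -2.16 and -2.03 in seedlings, -0.97, -0.07 and 0.26 in 35S:WIND1 callus, -6.47, -5.82 and -6.37 in T87 callus and -4.65, -4.95 and -4.76 in 2,4-D-induced callus. For both genes the 35S:WIND1 arrays were above all others.

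EXPA18 rose 3.11-fold (SE 0.31, adjusted p = 0.00162) and fell 19.9-fold and 7.40-fold, with 2 of 3 T87 arrays above background. XTH14 (AT4G25820) read 1.22, 0.38 and 0.46 in seedlings, 0.90, 2.08 and 2.56 in 35S:WIND1 callus, -2.46, -2.32 and -2.98 in T87 callus and -3.61, -3.26 and -2.58 in 2,4-D-induced callus. Its rise of 2.23-fold (adjusted p = 0.0448) came with overlapping arrays, the first replicate being lower than seedling replicate 1. The call ended with the slide as a block, with no filter on dim probes, and without seedling replicate 2 or 3, without 35S:WIND1 replicate 2 or 3, without any 1 T87 array and without 2,4-D-induced replicate 2, with log2 changes of 0.80 to 1.16. The rise of EXPA7 was not called without 35S:WIND1 replicate 3, where it was 1.15 on the log2 scale, or without seedling replicate 2 or 3, at 1.37 and 1.47.

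XTH14 fell 9.68-fold in T87 callus and 14.3-fold in 2,4-D-induced callus. XTH26 fell at least 13.5-fold in T87 callus and 20.8-fold in 2,4-D-induced callus, where 1 of 3 arrays was above background. XTH12 fell at least 3.32-fold in T87 callus and 4.61-fold in 2,4-D-induced callus, again with 1 of 3 arrays above background. XTH12 and XTH26 were not called in 35S:WIND1 callus.

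General root hair markers moved in the same comparisons. Of 8 markers (RHD6, RSL4, RHD2, COW1, LRX1, PRP3, IRE and AHA7), 35S:WIND1 callus had 2 higher and 0 lower by limma, T87 callus 0 higher and 6 lower, and 2,4-D-induced callus 1 higher and 6 lower. At an unadjusted p under 0.05, the counts were 2 and 0 in 35S:WIND1 callus and 0 and 7 with T87. The shares of all genes are those beside the counts of root hair XTH and EXPA genes, at most 20.8% higher and 26.5% lower. Their mean level per array ranged from -2.98 to -2.54 for seedlings and from -2.74 to -1.53 for 35S:WIND1 callus. It was lower in the auxin calli, from -6.55 to -5.79 for T87 and from -4.94 to -4.19 for 2,4-D-induced callus. PRP3, a wall protein of root hairs, and RSL4, a regulator of hair growth, rose 4.61-fold and 3.84-fold in 35S:WIND1 callus and were not well above background on any T87 array. RHD6, a regulator that starts hair growth, rose 9.97-fold in 2,4-D-induced callus. The part of hair cells in the values of the root hair XTH and EXPA genes was not tested.

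**Figure D5:**
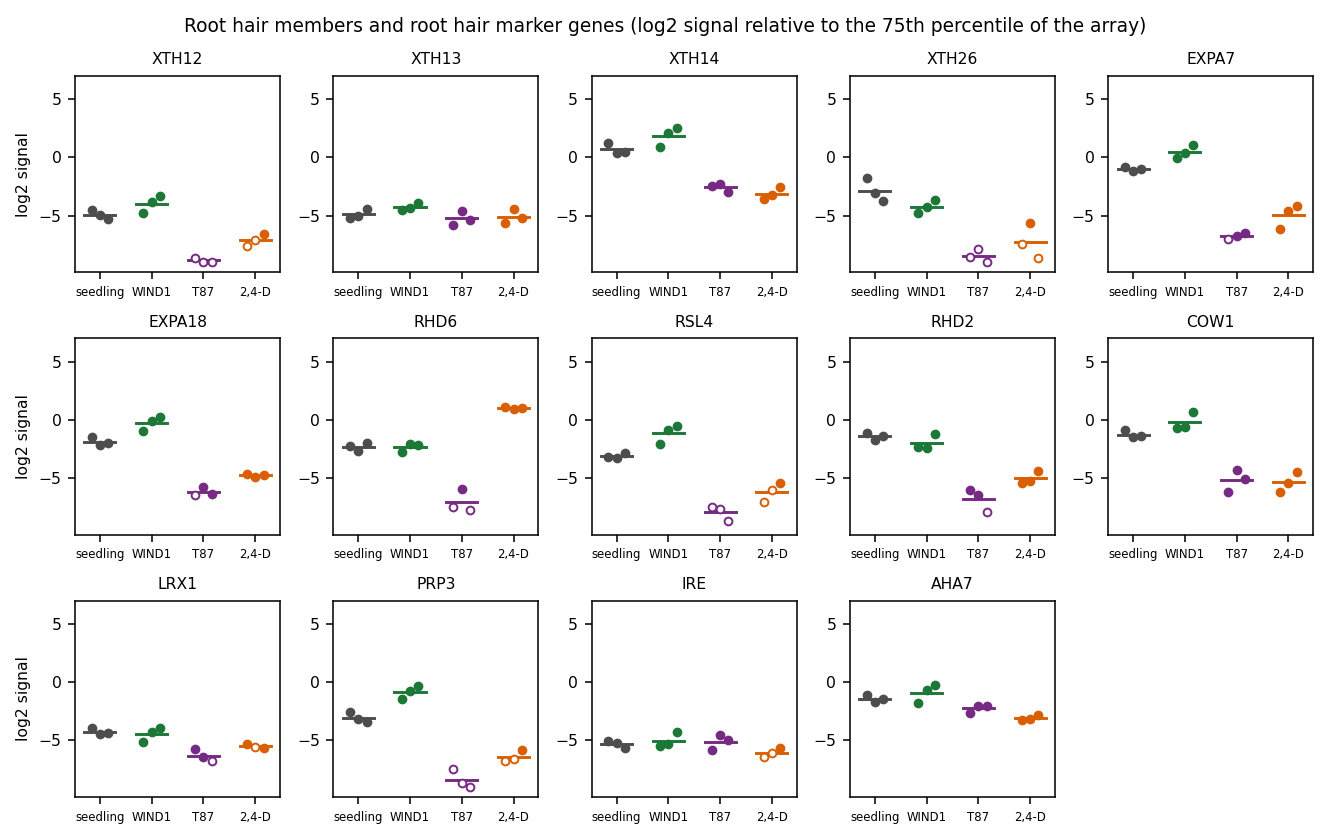
Log2 signal of 6 root hair XTH and EXPA genes and of 8 root hair markers on each array, with the array's 75th percentile at 0, shown as points for single arrays, open points where the signal was not well above background, and a line at the group mean. EXPA7, EXPA18, XTH14, RSL4, PRP3, COW1 and RHD2 are lower in both auxin calli than in seedlings and 35S:WIND1 callus, while RHD6 is highest in 2,4-D-induced callus.

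Organ markers differed as well. Of 4 leaf markers, 35S:WIND1, T87 and 2,4-D-induced callus had 4, 3 and 4 lower, and of 3 root markers 2, 3 and 2, where 19.6%, 26.5% and 24.2% of all genes were lower. The mean level of the leaf markers per array ranged from 6.59 to 6.90 for seedlings and from 2.71 to 3.68 for 35S:WIND1 callus. It ranged from 2.09 to 2.99 for T87 callus and from -1.64 to -0.31 for 2,4-D-induced callus. The value of 2.09 was that of T87 replicate 3, without the spot of LHCB1.1, which read 4.90 and 5.25 on the other T87 arrays. The mean of the root markers was, with 1 spot left out in each of these lists, 2.82 to 3.13, -1.31 to -0.0059, -4.49 to -2.83 and -1.53 to -0.88 in the same order. CASP1, a protein of the Casparian strip of the root endodermis, fell 79.1-fold in 35S:WIND1 callus. The part of organ composition in the falls of XTH and EXPA genes was not tested.

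Set against each other directly, 35S:WIND1 callus had higher levels of many XTH genes than either auxin callus. Of the 30 XTH genes tested, 23 were higher and 0 lower in 35S:WIND1 than in T87 callus by limma, where 20.0% of all genes tested were higher and 16.8% lower. At an unadjusted p under 0.05, 26 were higher and 0 lower. With normexp background correction, 13 were called higher and 0 lower. Against 2,4-D-induced callus, 19 were higher and 5 lower, where 16.8% and 11.7% of all genes were. The split with 2,4-D-induced callus was 22 higher and 2 lower with the deposited values and 12 higher and 1 lower with normexp background correction. The median log2 difference of the XTH genes was 2.80 and 2.07, and that of all genes was 0.00 and -0.07. These comparisons share the 35S:WIND1 arrays. The transgene, the auxin and the kind of material all differ between 35S:WIND1 callus and each auxin callus and cannot be told apart.

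XTH6, XTH31 and XTH7 were among the widest XTH differences. XTH6 was at least 107-fold higher in 35S:WIND1 than in T87 callus and at least 99.1-fold higher than in 2,4-D-induced callus. XTH31 was 124-fold and 152-fold higher, with 2 and 1 of 3 arrays above background in the auxin calli. XTH7 was 29.8-fold and 254-fold higher on the 2 usable 35S:WIND1 arrays. All 5 root genes XTH17 to XTH21 were higher in 35S:WIND1 than in T87 callus, as were 20.0% of all genes and 23 of the 30 XTH genes. Among the root genes, XTH19 was 35.7-fold higher and XTH21 64.4-fold, the latter with 1 of 3 T87 arrays above background. With normexp background correction, the calls of XTH17 (log2 difference 1.41), XTH20 (1.16) and XTH21 (2.41) ended. Against 2,4-D-induced callus, 4 of these 5 were higher, and XTH20 was 8.23-fold lower (adjusted p = 5.07e-05). There, 16.8% of all genes were higher and 11.7% lower, and of the 30 XTH genes 19 were higher and 5 lower. With normexp background correction, the calls of XTH17 (0.75), XTH19 (1.59), XTH21 (1.77) and XTH20 (-1.49) ended, which left XTH18.

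XTH33 and XTH29 were called higher in 35S:WIND1 than in T87 callus with overlapping arrays. XTH33 was 2.45-fold higher (adjusted p = 0.044) although it was lower on slide 2. Its call ended with the slide as a block, with normexp background correction (0.89), quantile normalization (1.08), array median scaling (0.85) or no filter on dim probes, and in 11 of the 12 settings that left out 1 array, all but that without 35S:WIND1 replicate 2. XTH29 was at least 1.93-fold higher (adjusted p = 0.0395), a call that ended with normexp background correction (log2 difference 0.40), quantile normalization (0.78) and array median scaling (0.74). It also ended without seedling replicate 1, 35S:WIND1 replicate 1 or 3, T87 replicate 2 or 3, or 2,4-D-induced replicate 2, with differences from 0.69 to 1.29.

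Of the 16 EXPA genes tested, 10 were higher and 2 lower in 35S:WIND1 than in T87 callus, where 20.0% and 16.8% of all genes were. Against 2,4-D-induced callus, 6 were higher and 2 lower, where 16.8% and 11.7% of all genes were, or 8 and 0 with the deposited values. These counts were 5 and 1 against T87 callus and 2 and 1 against 2,4-D-induced callus with normexp background correction. In 35S:WIND1 callus, EXPA7 was 150-fold higher than in T87 callus (SE 0.47, adjusted p = 1.03e-06) and 44-fold higher than in 2,4-D-induced callus (adjusted p = 1.10e-05). EXPA18 was 62.0-fold higher (adjusted p = 2.97e-07) and 23.0-fold higher (adjusted p = 3.02e-06), the latter not called with normexp background correction (log2 difference 2.42). EXPA1 was 5.31-fold and 2.80-fold lower in 35S:WIND1 callus, the latter not called with the deposited values (log2 change -0.83). EXPA17 was 3.30-fold lower than in 2,4-D-induced callus, a call that ended without 2,4-D-induced replicate 2 (-1.51), with the deposited values (-1.07) and with normexp background correction (-0.41).

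The 2 auxin calli also differed from each other. T87 callus had 4 XTH genes higher and 14 lower than 2,4-D-induced callus, and 2 EXPA genes higher and 11 lower, where 19.7% of all genes tested were higher and 19.2% lower. With normexp background correction these counts were 2 and 4 for XTH and 0 and 3 for EXPA genes. XTH20, EXPA9 and EXPA15 were the furthest below, at least 52.4-fold, at least 15.2-fold and 41.5-fold. EXPA2 and XTH7 were above, at least 29.9-fold and 8.52-fold, and XTH33 was 5.12-fold above (adjusted p = 0.002). With normexp background correction, the calls of XTH20 (log2 difference -2.65), EXPA9 (-1.66), EXPA2 (1.66) and XTH33 (0.82) ended. EXPA5 was at least 2.15-fold higher in T87 callus, but with normexp background correction its log2 difference turned to -0.16. The auxin, its dose and the origin of the cells all differ between these groups and cannot be told apart.

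Genes that make or trim xyloglucan were also measured. Of 13 xyloglucan synthesis genes, 35S:WIND1 callus had 3 higher and 3 lower, T87 callus 1 higher and 5 lower, and 2,4-D-induced callus 1 higher and 3 lower. The shares of all genes were 12.5% and 19.6%, 20.8% and 26.5%, and 18.6% and 24.2% in the same order. XLT2, a galactosyltransferase of xyloglucan side chains, fell 9.97-fold, 6.51-fold and 12.9-fold, while FUT1, which adds fucose to them, rose 5.63-fold in T87 callus. Of 3 xyloglucan trimming genes, 0 were called in a callus against seedlings by limma, with 1 higher and 1 lower in each at an unadjusted p under 0.05. Of 7 genes of primary wall cellulose synthesis, 3, 6 and 4 were lower, where 19.6%, 26.5% and 24.2% of all genes were. None was higher in a callus by limma, also at an unadjusted p under 0.05, where 5, 7 and 6 were lower. CESA2, a cellulose synthase subunit, fell 2.54-fold, 3.34-fold and 9.68-fold.

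The expansins outside the 17 EXPA genes described above showed both directions. They include the alpha-expansins EXPA12 and EXPA13. Of 11 such genes, 8 were tested, and 35S:WIND1 callus had 4 higher and 1 lower, T87 callus 3 higher and 3 lower, and 2,4-D-induced callus 2 higher and 4 lower. The shares of all genes called higher were 12.5%, 20.8% and 18.6%, and those called lower 19.6%, 26.5% and 24.2%. EXLA1, an expansin-like gene, rose 10.6-fold, 4.39-fold and 5.54-fold. EXPA12 was called higher in 35S:WIND1 and T87 callus and lower in 2,4-D-induced callus, and EXPA13 was called in none of them. EXPB1, a beta-expansin, fell 106-fold in 35S:WIND1 callus, 93.4-fold in T87 callus with 2 of 3 arrays above background, and at least 157-fold in 2,4-D-induced callus.

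Across the 6 comparisons, 187 member changes were called, of which 115 had both groups above background on all arrays, 36 had only a bound and 36 were measured on some arrays of a group. Of all genes, 32.1%, 47.4% and 42.8% were called against seedlings in 35S:WIND1, T87 and 2,4-D-induced callus. Between calli the shares were 36.8% for 35S:WIND1 over T87, 28.5% for 35S:WIND1 over 2,4-D-induced and 38.9% for T87 over 2,4-D-induced callus. Of the 182 called member changes with a value on all 3 slides, 180 had the called direction on each slide. The same arrays gave the calls, so this count is no separate test of them. With normexp background correction, 100 of the 187 were still called, 85 kept their direction without being called and 2 turned their direction. Of the genes given with values against seedlings, those no longer called were XTH6, XTH14, XTH19, XTH25, XTH32, EXPA1, EXPA7, EXPA9, EXPA10, EXPA14, EXPA15 and EXPA18 in 35S:WIND1 callus. In T87 callus they were XTH10, XTH12, XTH17, XTH19, XTH20, XTH21, XTH26, EXPA2, EXPA9, EXPA14 and EXPA18, and in 2,4-D-induced callus XTH12, XTH20, XTH21, XTH26, XTH29, XTH33, EXPA10, EXPA14, EXPA15 and EXPA18.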

How the data were processed

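RNA of 12 samples in 4 groups was measured on one-colour Agilent arrays. Spot intensities were background-subtracted signals as deposited, made with Agilent Feature Extraction 9.1.3.1 per the submitters' processing notes. The deposited series table holds natural log values that equal the log of the same signals minus 1 constant per group, as found from the values. Here, control and outlier spots were left out, and log2 signals were taken relative to the 75th percentile of each array. Probes well above background on all 3 arrays of a group were kept (21831 of 37478), with the brightest probe taken for each gene. The 21347 genes were fitted with limma 3.58.1 in R 4.3.3 (lmFit, eBayes, all 12 arrays, group only), a step tested on simulated data. Members and lists were chosen with earlier results of these data known. Values per array are given for up to 4 XTH and 4 EXPA genes per direction with the largest called changes against seedlings, up to 2 between calli, and for a few others chosen after their values were seen. Replicate number equals slide. Arrays of different groups were correlated after each gene's group mean was taken off. The 18 same-numbered pairs gave -0.14 to 0.12 and the 36 different-numbered pairs -0.16 to 0.19, so no block was used. Member sequences are not used here.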

Additional observations from a re-analysis of the deposited data

Results flagged for a closer look

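Some genes were called in opposite directions against seedlings in different calli, 3 of 30 XTH and 3 of 16 EXPA genes tested. Of all genes, 5.64% were. The calli also differed in the direct comparison by limma, with the log2 differences given here. XTH14 was 4.43 higher in 35S:WIND1 than in T87 callus and 4.99 higher than in 2,4-D-induced callus. EXPA7 was 7.23 and 5.46 higher in the same comparisons, and EXPA18 was 5.95 and 4.52 higher. XTH19 was 5.16 higher in 35S:WIND1 than in T87 callus. EXPA1 differed by -2.41 between 35S:WIND1 and T87 callus. XTH20 differed by -6.37 between T87 and 2,4-D-induced callus. The difference of EXPA18 between 35S:WIND1 and 2,4-D-induced callus (2.42) was not called with normexp background correction. Nor was that of XTH20 between T87 and 2,4-D-induced callus (-2.65). Against seedlings, every gene named here lost an opposing call with that correction. XTH14, EXPA7, EXPA1, EXPA18 and XTH19 did so in 35S:WIND1 callus, XTH19, XTH20 and EXPA18 in T87 callus, and XTH20 and EXPA18 in 2,4-D-induced callus.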

How the results depend on the processing

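Of the 187 called changes, 96 stayed called in every setting that gave a value, and 487 of 540 counts under the alternatives were within 1.5 times the reported ones. In the counts that follow, W, T and D stand for 35S:WIND1, T87 and 2,4-D-induced callus, S for seedlings, and the first group is higher or lower than the second. Array numbers and dim probes limit what can be called. Normexp correction, chosen after seeing the data because it had to use median spot signals, gave for W over S 2 XTH lower, 1 EXPA higher and 5 lower. For T over S it gave 10 XTH lower and 1 EXPA higher, and for D over S 3 XTH higher, 7 EXPA lower and 16 of the list genes. For W over T it gave 13 XTH higher, 5 EXPA higher and 1 lower, for W over D 12 XTH higher and 1 lower and 2 EXPA higher and 1 lower, and for T over D 2 XTH higher and 4 lower and 0 EXPA higher and 3 lower. EXPA5 reversed with it, from 2.32 to -0.019 for W over D and from 2.73 to -0.16 for T over D.

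Quantile normalization gave 14 XTH higher for W over S, and 9 XTH and 2 EXPA higher for D over S. Array median scaling gave 16 XTH higher for W over S, 6 for T over S, and 11 XTH and 2 EXPA higher for D over S. With the deposited values, 17 XTH were higher for W over S, 1 EXPA higher for T over S, and for W over D 22 XTH were higher and 2 lower and 8 EXPA higher and 0 lower.

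Only 18 XTH, 7 EXPA and 33 list genes were well above background on all 12 arrays. Among these, W over S had 1 XTH lower and 1 EXPA higher and 4 lower. T over S had 7 XTH lower, 1 EXPA higher and 4 lower and 19 list genes, and D over S had 3 XTH higher and 6 lower, 4 EXPA lower and 16 list genes. W over T had 11 XTH higher and 5 EXPA higher and 1 lower, W over D had 11 XTH higher and 2 lower and 2 EXPA higher and 1 lower, and T over D had 8 XTH lower and 0 EXPA higher and 5 lower. These lower counts come with fewer genes tested. For the other alternatives the cause of a change was not tested.

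Leaving out 1 array at a time gave 3 to 5 XTH and 1 to 3 EXPA lower for W over D, with 3 XTH without 35S:WIND1 replicate 1 and 1 EXPA without 2,4-D-induced replicate 2. The fit with the replicate number (slide) as a block, which does not pair the samples by the check of their correlations, moved no count by over 1.5 times. It ended the calls of XTH14 for W over S (1.16), XTH33 for W over T (1.29) and EXPA4 for T over D (-1.09).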
